A study of Homo sapiens with 4 samples.

Results

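AP-1 is a family of transcription factors made of pairs of leucine zipper proteins, in which a FOS, FOSL, ATF or BATF protein pairs with a JUN protein or with another relative and binds DNA at short sites in promoters and enhancers. FOS, FOSB and EGR1 are classical immediate early genes, switched on within minutes of a growth or stress signal through ERK, SRF and CREB and silent again soon after, whereas FOSL1 (FRA-1) and FOSL2 (FRA-2) last longer and are often the main FOS proteins of growing epithelial tumour cells. ATF3 is induced by many kinds of stress and can repress or activate genes, and EGR1 is a zinc finger factor that binds GC-rich sites.

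The genes described are FOS, FOSB, FOSL1, FOSL2, ATF3 and EGR1, 6 of the 17041 genes in the expression table, chosen by name and found by Ensembl gene ID. They were measured in A549 cells, an established human lung adenocarcinoma line, in 2 libraries of RBM10 knockdown cells and 2 libraries of RBM10 wild-type cells. RBM10 is an RNA-binding protein that controls alternative splicing, and the comparison asks what differs in these cells when there is less of it. Per the labels, knockdown cells received a lentivirus that encodes 1 shRNA against RBM10 and were kept in puromycin at 1 µg/mL for 10 to 14 days. Wild-type cells are described by genotype alone, so transduction and selection cannot be told apart from loss of RBM10. All cells were kept in medium with serum, all 4 libraries carry the same batch label, and the labels name no growth factor or stress pulse. Nothing in the labels says that the 2 libraries of a group came from separate cultures, so the p-values measure how these libraries spread, possibly for technical reasons alone.

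RBM10 itself was at 11.6 and 10.9 RPKM in knockdown libraries and at 35.5 and 40.8 RPKM in wild-type libraries, in the direction of the labels. RPKM is reads per gene scaled by gene length and library depth. Relative depth was 84.5% and 95.6% in knockdown and 99.02% and 100% in wild-type libraries. Reads were estimated for each gene with a known exon length from its level and the worth of 1 read. Summed over these genes, they came to about 31.9 M and 35.97 M reads in knockdown and 37.5 M and 37.9 M reads in wild type. Of 938 single-exon coding genes 17 are in the table, so genes without introns were hardly measured. Values thus appear to rest on reads across exon junctions rather than on all reads of a gene. The 6 epithelial markers summed to 4331 and 4367 RPKM in knockdown and to between 2365 and 2699 RPKM in wild-type libraries, led by KRT7, KRT18 and KRT8. KRT19 and EPCAM were also higher in knockdown. CDH1 differed little, at 3.23 and 3.40 RPKM in knockdown and 3.17 and 2.78 RPKM in wild type. Of 5 alveolar type II markers only NAPSA was in the table, below 1 RPKM in every library, and the leukocyte marker LYZ and the endothelial marker PECAM1 were at or near the value of a gene without reads. The part of the epithelial difference in the results was not tested. In bulk RNA, a change in the number of cells that express a gene and a change in RNA per cell cannot be told apart.

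The promoters of FOS, FOSB, FOSL2 and EGR1 are shown because they carry the short elements through which signals are known to reach immediate early genes. Each stretch is 150 bases, from position -120 to 30 relative to the start site, on the plus strand, from RefSeq (GRCh38.p14). Windows of 300 bases were matched for 5 of the 6 genes. FOSL1 had no window in the promoter set used, so its promoter was not searched. Capitals mark TGACG, the core of a CREB and ATF site (written CGTCA where it lies on the other strand), TATAAA, the TATA box, TGACTCA, the consensus AP-1 site, and the CArG box, the site of SRF.
FOS chr14:75278708-75278857: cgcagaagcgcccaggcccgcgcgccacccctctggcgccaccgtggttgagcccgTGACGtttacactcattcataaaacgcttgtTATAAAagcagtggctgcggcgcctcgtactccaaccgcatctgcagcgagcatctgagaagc
FOSB chr19:45467876-45468025: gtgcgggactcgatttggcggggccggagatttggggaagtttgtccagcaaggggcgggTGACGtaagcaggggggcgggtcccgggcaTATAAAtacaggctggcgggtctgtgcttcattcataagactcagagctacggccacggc
FOSL2 chr2:28392738-28392887: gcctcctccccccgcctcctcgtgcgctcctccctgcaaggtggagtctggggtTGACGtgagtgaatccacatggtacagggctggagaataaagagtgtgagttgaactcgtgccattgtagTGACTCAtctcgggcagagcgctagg
EGR1 chr5:138465359-138465508: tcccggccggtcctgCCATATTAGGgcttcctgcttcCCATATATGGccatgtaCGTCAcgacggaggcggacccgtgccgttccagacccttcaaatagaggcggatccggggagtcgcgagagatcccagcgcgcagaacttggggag

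All 4 promoters hold TGACG close to the same distance from the start site, at -64 to -60 in FOS, -60 to -56 in FOSB, -66 to -62 in FOSL2 and -66 to -62 in EGR1, where it lies on the minus strand. They were shown because they carry such elements, so a match in each was no finding. FOSL2 and EGR1 hold a further TGACG on the minus strand, at -201 to -197 and -135 to -131. On either strand, TGACG was in 24.6% of all 35116 promoter windows of 300 bases. FOS and FOSB also share TATAAA, beginning at -33 and -30, which was in 11.5% of windows. FOSL2 holds TGACTCA from 5 to 11 bases into the transcript, a match found in 4.95% of windows. EGR1 holds 2 CArG boxes, at -105 to -96 and -83 to -74, and 1.29% of windows hold any. The windows reach 250 bases upstream, so a CArG box farther out, in FOS or another gene, would not be seen. Neither of the 2 RefSeq windows of ATF3 holds the CREB-type core, the AP-1 consensus or a CArG box, and 1 of them holds TATAAA beginning at -230. Any other start site of ATF3 was not searched, so the lack of matches holds for these windows alone. These matches describe letters in the sequence and do not show that a factor is bound in these cells.

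The FOS family changed in composition. FOSL1 fell in knockdown cells to 37.5% of its wild-type mean (a ratio of 0.375), while FOS, FOSB and FOSL2 rose by factors of 1.32, 2.59 and 1.73. ATF3 rose by a factor of 1.93, and EGR1 did not pass the test. Tests were made with limma on log2(RPKM + 1) over the 10182 genes whose mean reached 1 RPKM in knockdown, wild type or both, and p-values are Benjamini-Hochberg adjusted over all of them. In that fit 4 of the 6 genes were higher and 1 was lower in knockdown, against 15.3% of all tested genes higher and 7.03% lower (22.3% in either direction). FOSB and ATF3 reached the level required for the test through the knockdown libraries alone, so a gene like them that had not risen would not have been tested. In all 6 genes the knockdown and wild-type values did not overlap, 5 of them higher and 1 lower in knockdown. Among all tested genes 34.3% were higher and 27.3% lower in this way, 61.5% in all, so a lack of overlap was common.

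**Figure D1:**
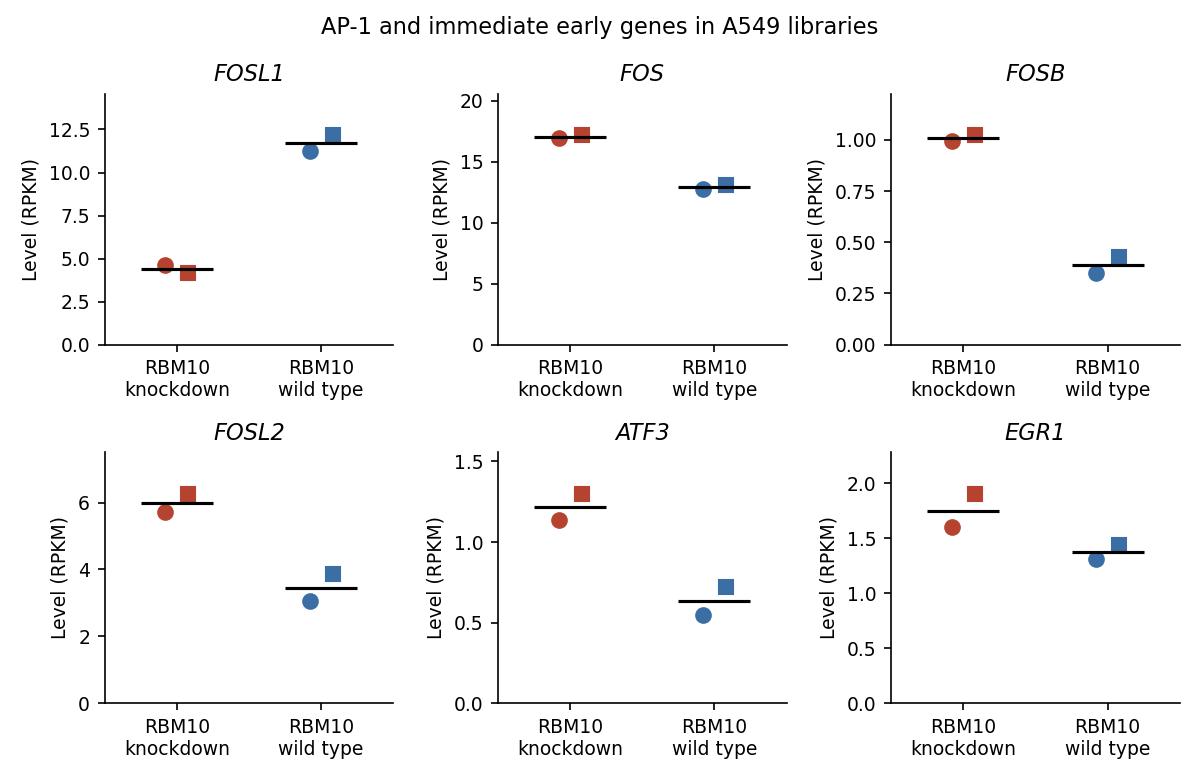
Level of each of the 6 genes in RPKM (vertical axes, each from 0) in RBM10 knockdown and wild-type libraries; circles are replicate 1, squares replicate 2 and bars the group means. FOSL1 lies between 4.18 and 4.62 RPKM in knockdown and between 11.3 and 12.2 RPKM in wild type, and the other 5 genes lie higher in knockdown.

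FOSL1 (ENSG00000175592; hg38 chromosome 11, 65892049 to 65900573, minus strand) encodes FRA-1, a FOS protein without the strong activation domain of FOS that accumulates when ERK is active. It was at 4.62 and 4.18 RPKM in knockdown libraries and at 11.3 and 12.2 RPKM in wild-type libraries. Both knockdown values lay far below both wild-type values. They rested on about 259 and 265 reads in knockdown and 742 and 808 in wild type. Its log2 change was -1.24 (SE 0.11; 95% interval -1.49 to -0.99; limma adjusted p = 6.58e-05), 13th lowest of 10182 tested genes.

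FOSL2 (ENSG00000075426; chromosome 2, 28392448 to 28417312, plus strand) encodes FRA-2, the close relative of FRA-1. It was at 5.73 and 6.26 RPKM in knockdown libraries and at 3.04 and 3.87 RPKM in wild-type libraries. Its log2 change was 0.65 (SE 0.13; 95% interval 0.37 to 0.94; limma adjusted p = 0.00556), opposite in sign to that of FOSL1. With no filter on low values the adjusted p was 0.0504, and the call was lost. FOSL2 overlaps the antisense RNA FOSL2-AS1, and the use of strand in counting is not given in the sources used here, so reads of the partner could be part of its value.

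FOS (ENSG00000170345; chromosome 14, 75278774 to 75282230, plus strand), the founding member and the usual strong partner of JUN, was at 17.0 and 17.2 RPKM in knockdown libraries and at 12.7 and 13.1 RPKM in wild-type libraries. It had the highest RPKM of the 6 in every library, in cells for which no stimulus is named. Its rise was the smallest of those that passed, with a log2 change of 0.38 (SE 0.10; 95% interval 0.15 to 0.60; limma adjusted p = 0.0236). The call was lost without knockdown replicate 1 (adjusted p = 0.127), knockdown replicate 2 (0.15) or wild-type replicate 1 (0.0577), and with the replicate number as a block (0.105).

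FOSB (ENSG00000125740; chromosome 19, 45467995 to 45475179, plus strand), which is best known for its lasting truncated form in neurons, had the largest ratio among the risers and the lowest RPKM of the 6. It was at 0.995 and 1.02 RPKM in knockdown libraries, on about 164 and 191 reads, and at 0.350 and 0.428 RPKM in wild-type libraries, on about 67 and 83 reads. Counting error alone gives 95% Poisson intervals of 140 to 191 and 165 to 220 reads in knockdown and of 51.9 to 85.1 and 66.1 to 103 reads in wild type. Its log2 change on the scale with a pseudocount of 1, which understates changes at low level, was 0.53 (SE 0.11; 95% interval 0.29 to 0.77; limma adjusted p = 0.00634), and with a pseudocount of 0.1 it was 1.19. The call was lost under quantile normalization (log2 change 0.19, adjusted p = 0.234) and cyclic loess normalization (0.32, adjusted p = 0.0526). FOSB lies within ERCC1, a DNA repair gene on the other strand, whose reads could be counted with it if strand was not used.

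ATF3 (ENSG00000162772; chromosome 1, 212565334 to 212620777, plus strand) was at 1.14 and 1.30 RPKM in knockdown libraries, on about 136 and 176 reads, and at 0.544 and 0.718 RPKM in wild-type libraries, on about 76 and 101 reads. Its log2 change was 0.44 (SE 0.11; 95% interval 0.19 to 0.70; limma adjusted p = 0.0210), and with a pseudocount of 0.1 it was 0.86. The call was lost with no filter on low values (adjusted p = 0.0626), under quantile normalization (log2 change 0.21, adjusted p = 0.198), cyclic loess normalization (0.25, adjusted p = 0.131) and without wild-type replicate 1 (0.37, adjusted p = 0.133).

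EGR1 (ENSG00000120738; chromosome 5, 138465490 to 138469315, plus strand) was at 1.60 and 1.90 RPKM in knockdown libraries and at 1.31 and 1.44 RPKM in wild-type libraries. The groups did not overlap, but the gap between them was smaller than the distance between the knockdown libraries. Its log2 change of 0.21 (95% interval -0.05 to 0.47) did not pass limma's test (adjusted p = 0.225), and it was 0.06 under quantile and 0.07 under cyclic loess normalization. The interval includes both no change and a rise as large as that of ATF3.

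**Figure D2:**
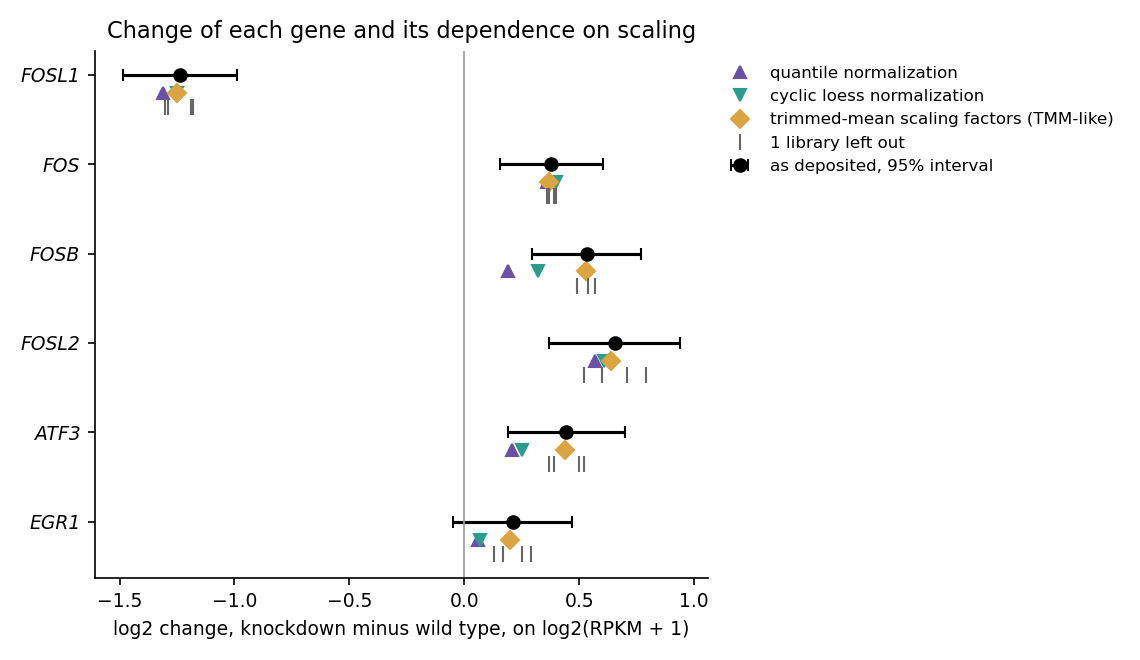
The log2 change of each gene (horizontal axis, knockdown minus wild type on log2(RPKM + 1)) with its 95% interval as deposited (black), under 3 other scalings (coloured) and with each library left out (grey ticks). FOSL1 stays between -1.31 and -1.18 in all of these, while FOSB, at 0.53 as deposited, is at 0.19 under quantile normalization.

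RPKM is per length, but nearly all single-exon coding genes are missing, so values appear to rest on reads across exon junctions. Genes differ in junctions for their length, so their levels may not lie on a common scale. The order of genes below is one of RPKM values and may not be that of mRNA. In knockdown cells the order of RPKM from high to low was FOS, FOSL2, FOSL1, EGR1, ATF3 and FOSB. In wild-type cells it was FOS, FOSL1, FOSL2, EGR1, ATF3 and FOSB, so that FOSL1 and FOSL2 exchanged places in this order. No neighbours in either order had overlapping values. FOSL1 was closest to FOS in wild type, at 0.885 and 0.930 of its level in the 2 libraries, against 0.272 and 0.243 in knockdown. The RPKM of FOSL1 was 0.807 and 0.667 times that of FOSL2 in knockdown and 3.71 and 3.14 times in wild type.

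The summed RPKM of the 4 FOS family genes was nearly the same in all libraries, at 28.3 and 28.6 RPKM in knockdown and 27.4 and 29.5 RPKM in wild type. This sum and the shares below add values of genes that may not lie on a common scale. Whether the sum of mRNA molecules was also steady was not tested. In the group means FOSL1 fell by 7.32 RPKM, while FOS gained 4.17 RPKM, FOSL2 2.54 RPKM and FOSB 0.620 RPKM. FOSL1 made up 15.4% ± 1.23 of the family sum in knockdown and 41.2% ± 0.0193 in wild type (SD, n = 2 each). FOS made up 60.0% ± 0.0333 in knockdown and 45.4% ± 1.57 in wild type. FOSL2 made up 21.0% ± 1.15 in knockdown and 12.1% ± 1.43 in wild type, and FOSB 3.54% ± 0.0410 in knockdown and 1.36% ± 0.122 in wild type. With 2 libraries against 2, an exact permutation test of a share cannot give a p that passes 0.05, so none was made.

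**Figure D3:**
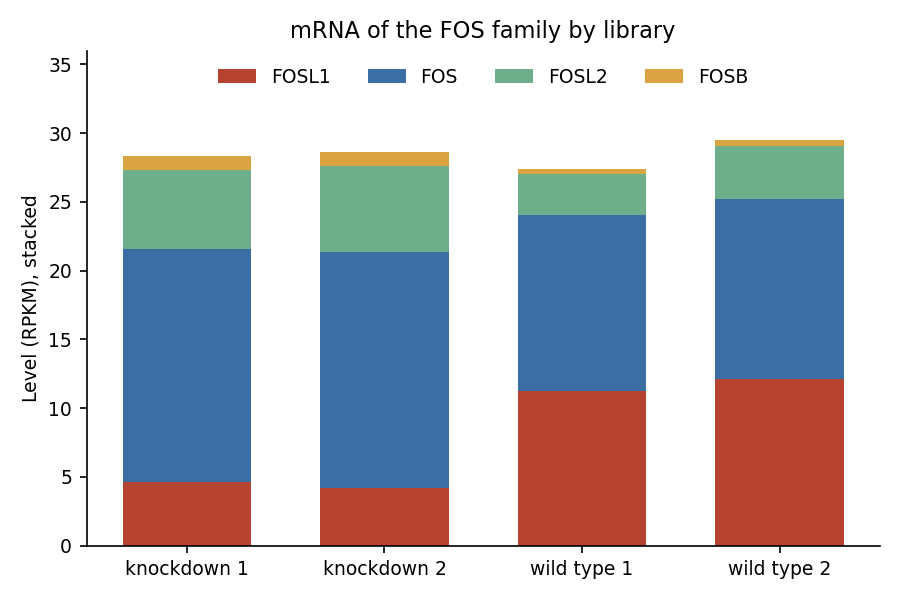
Stacked level of FOSL1, FOS, FOSL2 and FOSB in RPKM (vertical axis) in each of the 4 libraries. The bars are close in height, from 27.4 to 29.5 RPKM, while the FOSL1 part is 4.18 to 4.62 RPKM in knockdown and 11.3 to 12.2 RPKM in wild type. The genes may not lie on a common scale, so heights and shares depend on how each value is scaled.

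Ratios across the table depended on level, which bears on those of the 6 genes with low RPKM. Among the 1488 genes with a mean of 0.5 to 1 RPKM over all libraries, which include FOSB and ATF3, the log2 ratio of knockdown over wild type had a median of 0.26, and 69.4% were higher in knockdown. FOSB had a log2 ratio of 1.38 and ATF3 of 0.95, both above that median and below the 95th percentile of 1.74. EGR1, at 0.35, lay near the median of 0.18 of the 1777 genes between 1 and 2 RPKM. FOSL2, at 0.79, and FOS, at 0.40, lay above medians of 0.08 and -0.02 in their ranges of level, and below 95th percentiles of 1.12 and 0.70. FOSL1, at -1.41, was the only 1 of the 6 outside the 5th to 95th percentile of its range, -0.47 to 0.76. Under quantile and cyclic loess normalization, which equalize the distributions of the libraries or their trend with level, neither FOSB nor ATF3 passed.

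**Figure D4:**
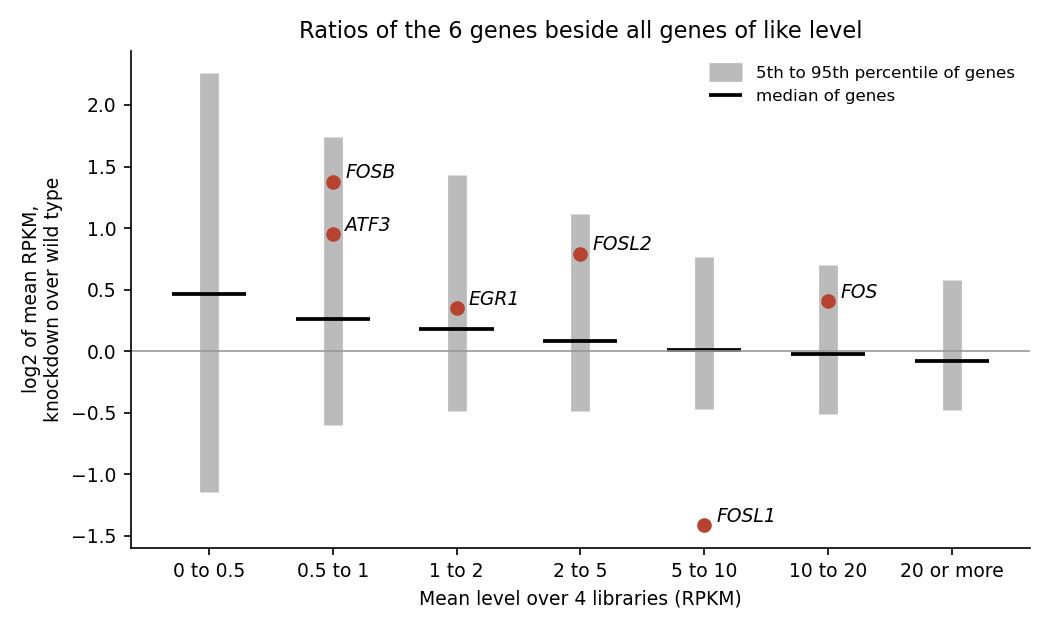
Log2 ratio of mean RPKM in knockdown over wild type (vertical axis) of the 6 genes (red), beside the median (black) and the 5th to 95th percentile (grey) of all genes in the same range of mean level (horizontal axis). FOSL1, at -1.41, lies below the grey range, and the 5 others lie within theirs.

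AP-1 proteins act in pairs, and the partners were only partly measured. JUN, JUNB and JUND are intronless, and JUN and JUNB were not analysed here. JUND was listed at 0.02002 RPKM in both knockdown libraries and at 0.02002 and 0.0455 RPKM in wild type, the value of a gene without reads or next to it, so no level of a JUN partner is given. Genes without introns were hardly measured, so this value does not show that JUND was silent. Of 8 tested leucine zipper partners and relatives, 3 were higher and 0 lower in knockdown, with a median log2 change of 0.14, against 15.3% and 7.03% of all tested genes and a median of 0.02. BATF3, a FOS-like partner of JUN, was at 4.21 and 4.50 RPKM in knockdown and 1.96 and 2.42 RPKM in wild type (log2 change 0.75, limma adjusted p = 0.00205). JDP2, a repressor that pairs with JUN, was at 3.47 and 3.31 RPKM against 1.79 and 2.43 RPKM (log2 change 0.50, limma adjusted p = 0.0213). MAFK, a small MAF that pairs with NRF2 and also with FOS, was at 20.7 and 20.04 RPKM against 12.8 and 13.2 RPKM (log2 change 0.61, limma adjusted p = 0.00224).

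The remaining relatives gave no call. ATF2 and ATF7, partners of JUN at CREB-type sites, averaged 3.71 and 4.25 RPKM in knockdown against 3.53 and 4.66 RPKM in wild type. ATF4 averaged 67.9 RPKM against 65.9 RPKM, DDIT3 5.64 RPKM against 4.72 RPKM and MAFG 1.22 RPKM against 1.51 RPKM. BATF2, MAF and MAFF were below the level required for the test, MAFF at 0.358 and 0.357 RPKM in knockdown and 0.235 and 0.279 RPKM in wild type. Of EGR1's corepressors, NAB1 rose to 3.81 and 4.35 RPKM in knockdown, against 3.19 and 2.32 RPKM in wild type (log2 change 0.44, limma adjusted p = 0.0462), and NAB2 averaged 5.12 RPKM against 5.73 RPKM without a call. EGR2, EGR3 and EGR4 were not analysed here.

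Other immediate early genes, which share signals with FOS and EGR1, were higher in 7 of 22 tested cases (31.8%, against 15.3% of all tested genes) and lower in 0 (against 7.03%), with a median log2 change of 0.15. DUSP1, the phosphatase that switches off MAP kinases, was at 142 and 124 RPKM in knockdown and 75.4 and 73.3 RPKM in wild type (log2 change 0.83, limma adjusted p = 0.000381). NR4A1, a nuclear receptor induced by many stimuli, was at 7.65 and 6.07 RPKM against 3.53 and 4.09 RPKM (log2 change 0.70), MCL1, a survival protein of the BCL2 family, at 7.67 and 9.16 RPKM against 5.58 and 4.93 RPKM (0.59), SGK1, a kinase, at 4.402 and 4.37 RPKM against 2.90 and 2.46 RPKM (0.55), and GADD45A, a growth arrest gene, at 4.52 and 4.17 RPKM against 2.68 and 2.88 RPKM (0.50). Their limma adjusted p-values lay between 0.00465 and 0.0121. The list was not uniform, since MYC averaged 14.4 RPKM in knockdown against 17.0 RPKM in wild type, CCN1 was at 21.1 and 19.4 RPKM against 25.05 and 24.88 RPKM, and IER3 averaged 12.9 RPKM against 13.3 RPKM, all without a call.

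Of the factors that drive these promoters, SRF averaged 5.96 RPKM in knockdown and 5.68 RPKM in wild type, and CREB1 4.45 RPKM and 4.15 RPKM. In this list 2 of 8 were higher (25%, against 15.3% of all tested genes) and 0 lower (against 7.03%), with a median log2 change of 0.09. ELK3, an ETS partner of SRF, was at 4.65 and 5.28 RPKM against 2.96 and 2.46 RPKM (log2 change 0.69, limma adjusted p = 0.00366), and ATF1, a CREB relative, was at 12.5 and 12.2 RPKM against 9.06 and 8.82 RPKM (log2 change 0.42, limma adjusted p = 0.0167). In the ERK, JNK and p38 cascades 2 of 19 were higher (10.5%) and 1 lower (5.26%), with a median log2 change of 0.00094, so the calls were no more frequent than the 15.3% and 7.03% of all tested genes. The p38 kinase activators went opposite ways, MAP2K6 at 6.59 and 7.64 RPKM against 3.999 and 3.25 RPKM and MAP2K3 at 16.2 and 16.1 RPKM against 21.5 and 22.6 RPKM (log2 changes 0.81 and -0.42, limma adjusted p = 0.00178 and 0.0141). MAPK9, which encodes the kinase JNK2, rose to 4.88 and 5.27 RPKM in knockdown, against 3.78 and 3.67 RPKM in wild type (log2 change 0.36, limma adjusted p = 0.0441).

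FOSL1 is known as a readout of ERK, and the other ERK output genes were set beside it. Of 6 tested, 1 was higher and 1 lower (16.7% each, against 15.3% and 7.03% of all tested genes), with a median log2 change of 0.14. With 6 genes, 1 call is near the background. PHLDA1 was at 3.33 and 3.26 RPKM in knockdown and 1.83 and 1.90 RPKM in wild type (log2 change 0.58, limma adjusted p = 0.00472), and CCND1, cyclin D1, at 14.4 and 15.9 RPKM against 20.4 and 21.8 RPKM (log2 change -0.45, limma adjusted p = 0.0131). ETV4 and ETV5, ETS factors, averaged 18.8 and 4.22 RPKM in knockdown against 17.4 and 4.58 RPKM in wild type, and EPHA2, a receptor kinase, 44.1 RPKM against 39.1 RPKM, with no call. DUSP4, a phosphatase of MAP kinases, was at 6.45 and 5.82 RPKM in knockdown and 4.03 and 4.92 RPKM in wild type, without overlap, and did not pass (log2 change 0.38, limma adjusted p = 0.0516). DUSP6, SPRY2, SPRY4, EPHA4, SPRED1 and SPRED2 were below the level required for the test.

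Of 14 tested genes known as AP-1 targets, 8 were higher (57.1%, against 15.3% of all tested genes) and 3 lower (21.4%, against 7.03%), with a median log2 change of 0.52. The list was chosen with earlier results of these data known, and many of its genes also answer TGF-beta or NF-kB. IL11, a cytokine, was at 29.9 and 26.1 RPKM in knockdown and 5.37 and 7.64 RPKM in wild type (log2 change 1.96, limma adjusted p = 2.35e-05). CXCL8, a neutrophil chemokine that was tested through its knockdown level alone, was at 3.54 and 3.20 RPKM against 0.729 and 0.908 RPKM (log2 change 1.26, limma adjusted p = 7.47e-05). PLAUR, the urokinase receptor and a known FRA-1 target, was at 20.5 and 18.4 RPKM against 7.57 and 8.31 RPKM (log2 change 1.19, limma adjusted p = 7.47e-05), opposite in direction to FOSL1. CD44, a hyaluronan receptor, was at 24.5 and 26.0 RPKM against 13.1 and 11.4 RPKM (log2 change 0.99, limma adjusted p = 0.00023).

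The 3 AP-1 target genes that fell were HMOX1, heme oxygenase, at 67.1 and 60.6 RPKM in knockdown and 108 and 123 RPKM in wild type (log2 change -0.84, limma adjusted p = 0.000486), HMGA1, a chromatin protein, at 138 and 142 RPKM against 196 and 234 RPKM (-0.61, 0.00316), and CCND1, given above. MMP3 and MMP13, also on the AP-1 target list, were not analysed here. The collagenase gene MMP1 and the stromelysin gene MMP10 stayed below 0.2 RPKM in every library and were not tested. MMP1 was at 0.188 and 0.181 RPKM in knockdown against 0.0728 and 0.0288 RPKM in wild type. MMP10 was at 0.191 and 0.0676 RPKM against 0.0327 and 0.0213 RPKM. Both were thus higher in knockdown, as were 71.1% of all genes with a mean below 0.5 RPKM. Of 7 tested integrated stress response genes, which share inputs with ATF3, 2 were higher (28.6%, against 15.3% of all tested genes) and 0 lower (against 7.03%), with a median log2 change of 0.12. SESN2 was at 4.35 and 4.17 RPKM against 2.74 and 3.10 RPKM (log2 change 0.42, limma adjusted p = 0.0254), and DDIT4 was at 69.6 and 66.1 RPKM against 48.4 and 56.1 RPKM (log2 change 0.37, limma adjusted p = 0.029).

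**Figure D5:**
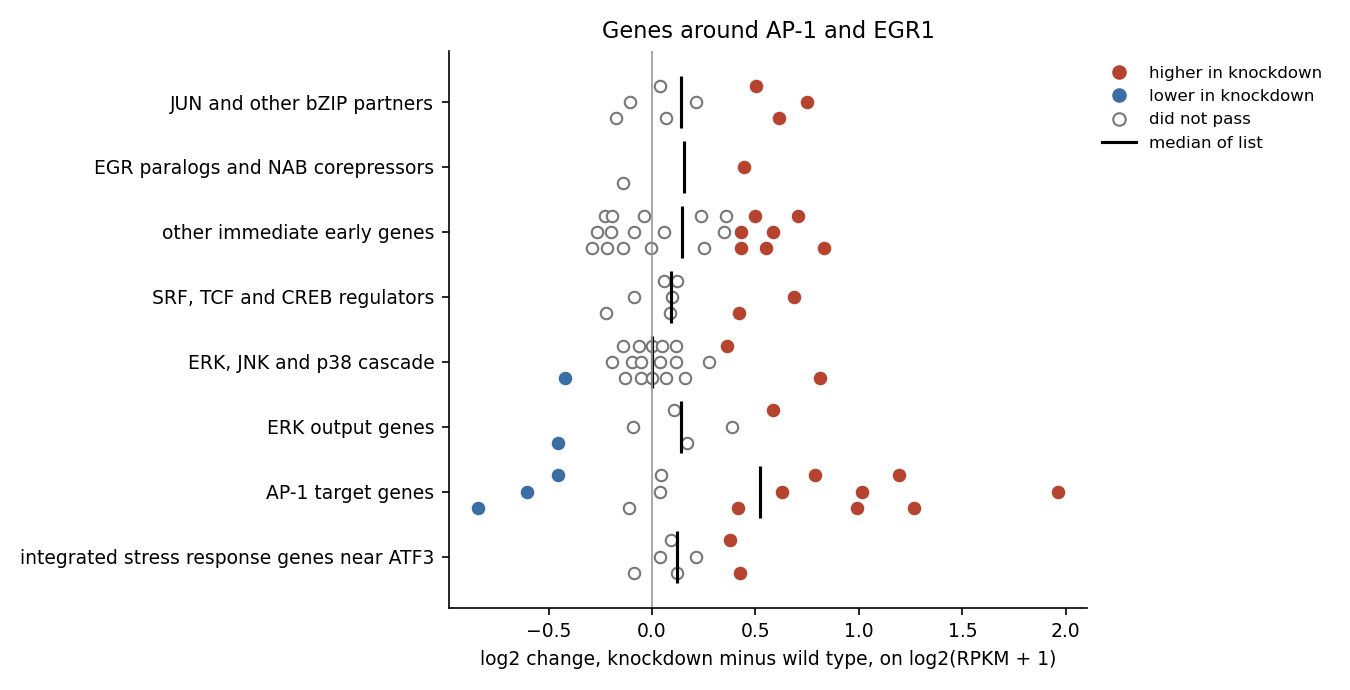
Log2 change of each tested gene (horizontal axis, knockdown minus wild type on log2(RPKM + 1)) in 8 gene lists (rows); filled points passed limma's test, open points did not, and bars are list medians. The median of the AP-1 target list is 0.52, and those of the 7 other lists lie between 0.00094 and 0.15.

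Likeness to each gene was measured as the distance between the 4 library values of log2(RPKM + 1), each centred on its gene's mean, over all tested genes. With 4 libraries it mainly reflects the size of the change. The nearest genes to FOSL1 were NFKB2 (distance 0.028), a subunit of NF-kB at 15.9 and 14.4 RPKM in knockdown and 35.5 and 39.1 RPKM in wild type, COX20 (0.067) and MGAT4B (0.103). The nearest to FOSL2 were BAMBI (0.029), CRIM1-DT (0.066) and TMEM107 (0.075), and the nearest to FOS were TMEM150A (0.011), ARPC5 (0.016) and SYNGR3 (0.021). For FOSB they were DPY19L3-DT (0.0095), TRIM73 (0.026) and MYRF (0.026), for ATF3 GSTM4 (0.020), SLC44A3 (0.027) and SNX10 (0.028), and for EGR1 RSRP1 (0.012), MYO9B (0.013) and ING4 (0.023).

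In the splicing table, 1 of the 6 genes had events, FOSB, with 2 of the 3744 tested. Both concern reads into the intron before the last FOSB exon (chromosome 19, 45471301 to 45472551), set against the splice across it and given as PSI (percent spliced in), the part of the reads at both junctions that falls on the examined one. At the last exon's edge (45472550 to 45472551) PSI was 56.1% and 60.3% in knockdown and 73.1% and 30.2% in wild type. Inside the intron (45472081 to 45472082) it was 58.3% and 70.7% in knockdown and 81.6% and 44.4% in wild type. In both events the knockdown libraries lay between the wild-type libraries. The differences were 6.56 points (95% interval -28.7 to 41.9) and 1.48 points (-31.7 to 34.6), with limma adjusted p = 0.815 and 0.957, so no call was made. Of all tested events 4 passed (0.107%). The splice within the last exon that gives the truncated ΔFOSB protein is not among the listed events, and the table lists events by a spread of at least 0.15 over the libraries.

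Of 16 events in 12 genes of the lists, 1 passed, the reads into a MAFK intron (chromosome 7, 1542298 to 1542299), with a PSI of 85.0% and 90.4% in knockdown and 0% in both wild-type libraries (limma adjusted p = 0.0354), a call that was lost with any 1 of the 4 libraries left out. An alternative 3′ splice site of PLK3, a stress kinase (chromosome 1, 44804501 to 44804650), was at 82.4% and 75.0% against 52.2% and 61.3% (21.9 points, limma adjusted p = 0.269). The groups did not overlap in either event, but the depth behind a PSI is unknown.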

How the data were processed

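Polyadenylated RNA of 2 RBM10 knockdown and 2 wild-type A549 libraries was made into stranded libraries and sequenced as paired reads of 100 bp, per the labels. The submitters' processing notes name STAR 2.6.1 and hg38; for the counter, the annotation, the use of strand and the splicing caller, nothing is given in the sources used here. Gene levels were deposited by the authors in RPKM (a unit inferred from the values), and the PSI of junction events was deposited as a fraction.

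Low RPKM values were whole multiples (within 0.02 of a step) of the worth of 1 read, from which relative depth was read; reads per gene were estimated with GENCODE v29 exon lengths, which matched within 0.5% in 66.4% of 1290 genes that allow the check, so ATF3 and others may be off by more. Poisson intervals cover counting error only. A table that pairs IDs with symbols named 16921 genes, and GENCODE named 85.

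Levels were compared by limma (version 3.58.1, R 4.3.3; two-sided, pseudocount 1, trended empirical Bayes, a mean of 1 RPKM reached in either group, adjusted p below 0.05). For PSI fractions, limma's call also required a difference of at least 0.1. Both were first run on simulated data. For PSI the simulated difference was far above the threshold, so smaller differences were not covered. Named genes were the 6 genes, RBM10, up to 5 called genes with the largest change per list, all leucine zipper and EGR relatives, the 3 genes nearest to each of the 6, their events and the 3 largest list events; MYC, CCN1, IER3, SRF, CREB1, ETV4, ETV5, EPHA2, DUSP4 and the AP-1 targets that fell were added after their values were seen. Some results that this rule names are not reported here. Genes and lists were chosen with earlier results of these data known. Alternatives were another pseudocount, no filter, 3 scalings, a replicate block and leaving out each library. Sequences are from RefSeq.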

Additional observations from a re-analysis of the deposited data

How the results depend on the processing

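FOSL1 kept its direction and its call in every alternative fitted with a value per gene (all but the crossed pairing given last), at a log2 change between -1.39 (pseudocount 0.1) and -1.18, and EGR1 passed in none of these. Of the 4 genes called higher, 2 were called with no filter on low values (FOSL2 at 0.65, limma adjusted p = 0.0504, and ATF3 at 0.44, adjusted p = 0.0626, were lost), 2 under quantile normalization (FOSB 0.19 and ATF3 0.21 lost) and 2 under cyclic loess normalization (FOSB 0.32 and ATF3 0.25 lost). The cause was not tested. With 1 library left out, 2 to 4 were higher and 1 lower, with log2 changes of 0.36 to 0.4 for FOS, 0.49 to 0.57 for FOSB, 0.52 to 0.79 for FOSL2 0.37 to 0.52 for ATF3 and 0.13 to 0.29 for EGR1. Without knockdown replicate 2, FOSB fell below the filter.

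Over all genes, lower calls numbered 716, against 322 with no filter and 438 with the replicate block, and 413 to 657 with a library left out (413 without knockdown replicate 1, 438 without knockdown replicate 2), while higher calls stayed within 1.5 times of 1555 in these. Higher and lower calls were 1140 and 1031 under quantile normalization, and no scaling moved the median gene by over 0.1. In the lists together, 26 genes were higher and 4 lower; 17 were higher with no filter, and with a library left out 19 to 24 were higher and 2 to 4 lower (2 without knockdown replicate 1). The 1 listed splice event that passed was lost (0) with any library left out.

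The replicate numbers share no stated source. The deviations of same-numbered libraries correlated at -0.444 over 10182 genes, and with the replicate number as a block FOS stayed at 0.38 but did not pass (adjusted p = 0.105), the only call among the 6 genes that the block ended. A crossed pairing, added after seeing the data, gave 2466 higher and 1730 lower genes, with 4 and 1 of the 6 genes and 30 and 9 list genes.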
